A study of Mus musculus with 6 samples.

Results

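A set of 10 transcription factor genes known from the development of the shoulder and pelvic girdles, Emx2, Tbx15, Tbx18, Alx1, Alx4, Pbx2, Pbx3, Gsc, Pax1 and Pax9, were followed in mouse hindlimb buds with and without Lmx1b. They were 10 of 18193 genes with a probe set annotated to 1 gene symbol, and all of their probe sets were taken, 19 in all. The set was chosen by the measured differences between Lmx1b-null and wild-type pools, to hold genes that were lower and genes that were higher, so those differences between the groups are given as a description with no test. Expression had been measured in 3 wild-type pools and 3 Lmx1b-null (Lmx1b -/-) pools of the 129Sv strain at embryonic stage E11.5. A pool held both hindlimb buds of 3 embryos, 6 buds in all, cut to about 500 µm of proximal tissue, and went onto 1 array. How the null allele was made and which other alleles the embryos carried are not given in the sources used here. Values are log2 RMA values (robust multi-array average, which corrects background, scales arrays to one another and merges the probes that read 1 transcript). Differences are the null mean less the wild-type mean, with the standard error (SE) from a limma fit over all probe sets, and group means carry the SD over n = 3 pools.

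LMX1B is a LIM homeodomain factor that gives limb mesenchyme its dorsal identity. The girdles anchor the limb skeleton to the trunk and form from mesenchyme at the base of the bud and beside it, with a contribution from somites. Several homeobox, T-box and paired-box genes act there: loss of EMX2 removes the ilium and most of the scapular blade, TBX15 with ALX4 shapes the scapular blade, PAX1 is needed for the acromion, and PBX proteins are partners of HOX and other homeodomain proteins.

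Of 10 limb mesenchyme markers, 1 lay under the median of all probe set means (4.98), Fgf10 at 4.14 in wild-type pools. Tbx4 and Pitx1, which mark the hindlimb, averaged 10.49 and 10.27 in wild-type pools, and the forelimb factor gene Tbx5 lay at 4.27, also under that median. Lmx1b itself fell in its brighter probe set (1441729_at) from 7.93 ± 0.31 to 4.47 ± 0.21, a change of -3.45 (SE 0.16; limma adjusted p = 0.00026 over all genes). The dimmer one (1421769_at) stood at 3.93 and 3.92, and which part of the gene it reads is not known here. Arrays were closely alike, with correlations over all probe sets from 0.993 to 0.997.

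By its choice, the set held genes that were lower and genes that were higher in null pools. Emx2 and Tbx18 were lower in every null pool than in any wild-type pool. Pax9 was higher in every null pool in all 3 of its probe sets. Both Pbx genes, Tbx15 and Gsc had overlapping pools, as did 1 probe set each of Pax1 and Alx1. Of the 19 probe sets, 4 had all null pools below all wild-type pools, 5 had them above and 10 overlapped. Over all 45037 probe sets the shares were 5.78% below and 8.62% above, and nothing is read from the set's count because these differences chose the genes. Over the whole arrays, 38 probe sets (0.0844%) passed limma's adjusted p threshold of 0.05. The median difference was -0.02 over the 19 and 0.01 over all probe sets. The spread of a set of 3 pools was of the usual size, with a median SD within groups of 0.09 for the 19 probe sets and 0.11 for all.

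**Figure D1:**
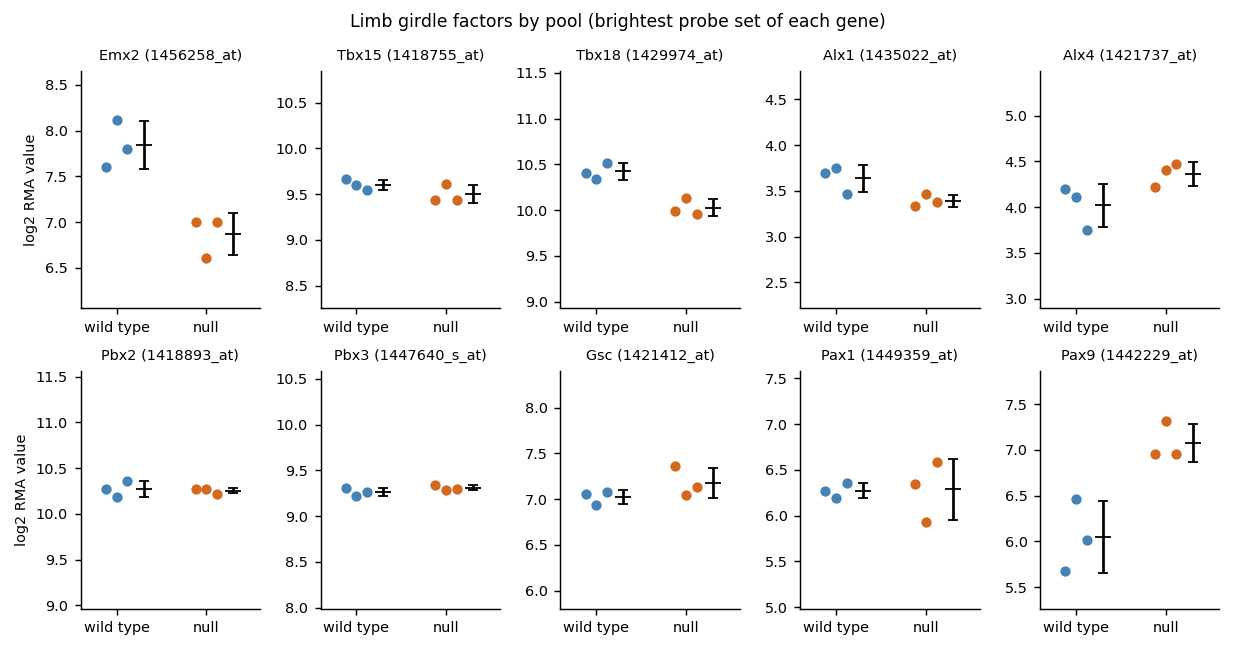
Log2 RMA values of the brightest probe set of each of the 10 genes in the 3 wild-type pools (blue) and 3 Lmx1b-null pools (orange), in panels that each span the same 2.6 log2 units; the bar beside each group is the mean with the SD over 3 pools. Emx2, Tbx18 and Alx1 have all null pools below wild type, Alx4 and Pax9 have all above, and the other 5 overlap.

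Promoter sequence is shown for Emx2 and Tbx18, in which every null pool lay below every wild-type pool in all of their probe sets, because LIM homeodomain proteins recognise AT-rich sites with a TAAT core. The windows are the 250 bases before the RefSeq start, from a table of build GRCm38.p6 that held 6 of the 10 genes. They are written 5′ to 3′ on the gene's strand, and capitals mark TAAT, or ATTA, which is TAAT on the other strand.
Emx2, chr19:59458440-59458689, plus strand: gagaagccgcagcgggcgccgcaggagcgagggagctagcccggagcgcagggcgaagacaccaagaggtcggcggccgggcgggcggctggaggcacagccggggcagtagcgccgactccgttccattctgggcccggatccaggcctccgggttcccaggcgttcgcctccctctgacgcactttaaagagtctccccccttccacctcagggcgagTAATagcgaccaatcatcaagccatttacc
Tbx18, chr9:87731261-87731510, minus strand: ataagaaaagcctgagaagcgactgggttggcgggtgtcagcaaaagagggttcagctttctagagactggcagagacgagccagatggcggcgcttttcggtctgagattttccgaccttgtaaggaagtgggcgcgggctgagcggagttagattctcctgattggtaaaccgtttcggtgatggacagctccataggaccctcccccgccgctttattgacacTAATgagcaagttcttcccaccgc
Each window held 1 TAAT, which began 30 bases before the start in Emx2 and 24 bases before it in Tbx18. Of all 32851 windows of this length, 54.9% held TAAT on either strand, and 8.07% held one beginning within 30 bases of the start; that distance was chosen after the sequences were seen. The longer palindrome TAATTA, which holds TAAT on both strands, was in 0 of the 6 windows and in 4.84% of all windows. Among the other 4 windows, Gsc and Pax9 held 1 TAAT each, and Pbx2 and Pax1 held none. GC content was 67.2% in Emx2 and 54.0% in Tbx18, with 24 and 15 CG dinucleotides, against medians of 52.4% and 6 over all windows. Pax9 stood at 43.6% with 7 CG dinucleotides, but its listed start is not the outermost start of the gene in the same RefSeq assembly. The listed start of Pax1 is not the outermost one either. No binding of LMX1B was measured in these data, and a letter match is not a binding site.

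Emx2 encodes an empty-spiracles homeodomain factor, also needed in the cerebral cortex and the urogenital tract, and lies on chromosome 19. Its only probe set (1456258_at) read 7.60, 8.12 and 7.80 in wild-type pools, in the order of their pool numbers 1 to 3 as throughout, against 7.00, 6.61 and 7.00 in null pools. Each null pool was lower than every wild-type pool, with 0.60 between the nearest pools of the groups. The means were 7.84 ± 0.27 and 6.87 ± 0.22, a difference of -0.97 (SE 0.15), or 51.0% of the wild-type level. With any 1 pool left out the difference ran from -1.09 to -0.83. Since whole tissue was measured, fewer Emx2-expressing cells and less Emx2 RNA per cell cannot be told apart. Emx2 varied more between pools of a group than most transcripts: its SD within groups of 0.24 was larger than that of 95.6% of probe sets.

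Because Emx2 is also known from the urogenital ridge, markers of that tissue and of the coelomic lining were read in the same pools. Of 12 listed, 10 were measured, 8 of them with means under the median of all probe sets. Their summed level on the linear scale was 239 to 296 in wild-type pools and 266 to 301 in null pools, so the groups overlapped. The gonad and kidney factor gene Wt1 averaged 4.47 in wild-type and 4.34 in null pools. Gata4 (0.21), Lhx1 (0.19) and Pax8 (0.16) had the smallest p-values, with limma adjusted p of 0.505, 0.517 and 0.546, and were at 2.91 to 3.43 in wild-type pools.

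The genes nearest to Emx2 in their values over the 6 pools were Agtr2, Ntn1 and Syt13. Likeness was the root mean square difference between log2 values, each gene centred on its own mean over the 6 pools. It was 0.093 for Agtr2, the angiotensin type 2 receptor gene, 0.105 for Ntn1, which encodes the axon guidance cue netrin 1, and 0.148 for the synaptotagmin gene Syt13. Emx2 itself departed from its mean by 0.525. Agtr2 read 7.37, 7.83 and 7.68 in wild-type pools and 6.67, 6.55 and 6.79 in null pools. Like Emx2, it was lowest among wild-type pools in pool 1 and lowest among null pools in pool 2. Ntn1 had its lowest values in the same pools, at 7.76 and 7.02. The difference between the groups enters this likeness, which is given as a description.

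**Figure D2:**
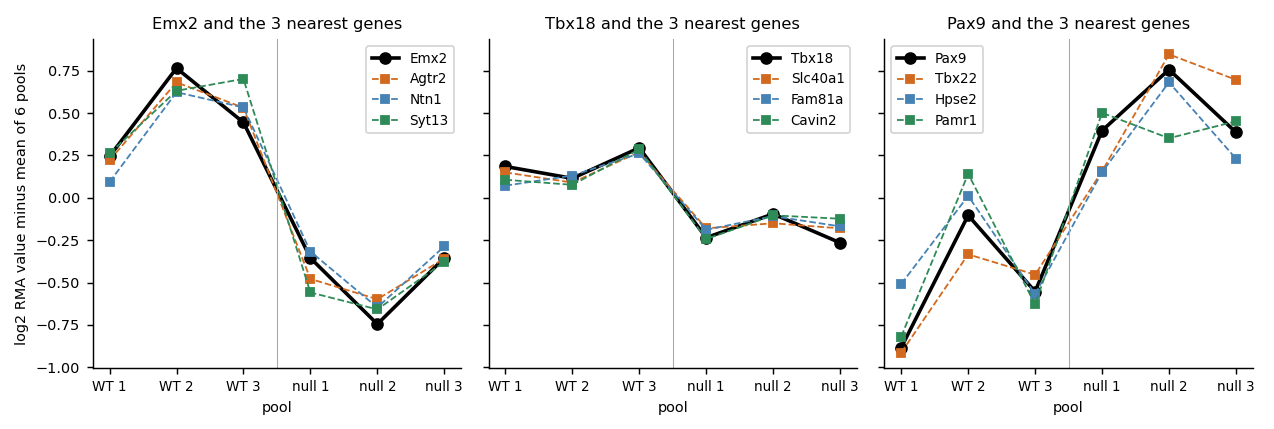
Log2 RMA values minus each gene's mean over the 6 pools (vertical axis) in each pool (horizontal axis), for Emx2, Tbx18 and Pax9 (black, brightest probe set) and the 3 genes nearest to each; lines join 1 gene's values for reading, since pools have no order. Agtr2 lies within a root mean square difference of 0.093 of Emx2, Slc40a1 within 0.052 of Tbx18 and Tbx22 within 0.191 of Pax9.

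Tbx18, a T-box gene on chromosome 9, is expressed in proximal limb mesenchyme and in somites, where it keeps front and rear parts distinct. Its brighter probe set (1429974_at) read 10.41, 10.34 and 10.52 in wild-type pools and 9.99, 10.13 and 9.96 in null pools. The other (1449871_at) read 8.94, 8.81 and 8.99 against 8.40, 8.38 and 8.38. Null pools were lower throughout, with gaps of 0.21 and 0.41 between the nearest pools. Differences were -0.40 (SE 0.08) and -0.52 (SE 0.07), or 75.8% and 69.6% of wild type. The null pools of the second probe set lay close together, with an SD of 0.01. The nearest genes by the same measure were the iron exporter gene Slc40a1 (0.052), Fam81a (0.067) and the caveolar gene Cavin2 (0.068), with differences of -0.34, -0.31 and -0.31. Tbx18 departed from its own mean by 0.213.

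Tbx15, the closest relative of Tbx18 in the set, is a T-box gene on chromosome 3 needed for a full-sized scapula. Its brighter probe set (1418755_at) read 9.66, 9.60 and 9.55 in wild-type pools and 9.44, 9.61 and 9.44 in null pools. The other (1422195_s_at) read 7.69, 7.55 and 7.57 against 7.44, 7.58 and 7.44. In both, null pool 2 lay inside the wild-type range and null pools 1 and 3 below it. Differences were -0.11 (SE 0.07) and -0.12 (SE 0.07), and -0.16 in both without null pool 2. Side by side, the brighter probe sets stood at -0.40 for Tbx18 and -0.11 for Tbx15. The difference between the genes was not tested.

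Pax9, a paired-box gene on chromosome 12, acts in the sclerotome, the pharyngeal pouches and the digits. Probe set 1442229_at read 5.68, 6.46 and 6.01 in wild-type pools and 6.96, 7.32 and 6.95 in null pools. Probe set 1421247_at read 6.19, 6.24 and 5.80 against 6.57, 6.52 and 6.64. The dimmest, 1421246_at, read 3.50, 3.87 and 3.74 against 3.90, 4.08 and 3.95. All 3 placed every null pool above every wild-type pool, with gaps of 0.49, 0.28 and 0.03. They did not give 1 size: differences were 1.02 (SE 0.19), 0.50 (SE 0.12) and 0.27 (SE 0.10), or 203.3%, 141.5% and 120.7% of wild type. The dimmest had means of 3.71 and 3.98, under the median of all probe set means. The wild-type pools spread most in the first probe set, with an SD of 0.39, and its difference ran from 0.84 without wild-type pool 1 to 1.23 without wild-type pool 2.

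Pax1, the paralogue of Pax9 on chromosome 2, gave no such separation in its brighter probe set (1449359_at). This read 6.27, 6.19 and 6.36 in wild-type pools and 6.35, 5.93 and 6.59 in null pools. The null pools lay on both sides of the wild-type range, for a difference of 0.01 (SE 0.15). It turned sign with the pool left out, from -0.14 without null pool 3 to 0.19 without null pool 2, and was -0.002 with arrays centred on their medians. The dimmer probe set (1443476_at) read 4.08, 3.96 and 4.06 against 4.22, 4.09 and 4.32, higher in all null pools by 0.01 or more at 0.18 (SE 0.08). The brighter probe sets of the pair thus read 1.02 for Pax9 and 0.01 for Pax1, and the difference between the genes was not tested.

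Somite and sclerotome markers were read beside Pax9 and Pax1. Of 11 listed, 9 were measured, with 5 higher and 4 lower, 0 past limma's adjusted threshold and 2 with an unadjusted p under 0.05, both higher, against 3.88% of all genes lower and 5.92% higher at that p. Their summed linear level was 1325 to 1543 in wild-type pools and 1646 to 1663 in null pools, so every null pool was above. Meox1 and Meox2, homeobox genes of somites and muscle precursors, stood at 0.50 (adjusted p = 0.231) and 0.25 (adjusted p = 0.393), and Mesp2 at 0.18 (adjusted p = 0.524). The sclerotome genes Nkx3-2 and Uncx lay near the bottom of the range, at 3.22 and 2.83 in wild-type and 3.13 and 2.94 in null pools. Limb muscle markers were higher as well, with summed levels of 760 to 1289 against 1305 to 1482. Of these 8 genes, 7 were higher and 0 passed. Msc was at 0.78, Myod1 at 0.51 and Lbx1 at 0.32 (limma adjusted p = 0.150, 0.438 and 0.351), while Pax3 and Myf5 stood at -0.0 and 0.02. Actc1, the brightest of the 8, weighs most in the sums. Its pools overlapped, at 7.34, 8.90 and 8.33 in wild-type and 8.90, 8.71 and 8.91 in null pools. Wild-type pool 1 had both the lowest muscle sum, 760, and the lowest value in 2 of 3 Pax9 probe sets. It was also lowest in the somite and sclerotome sum, 1325. The null pools ran the other way: null pool 2 had their lowest muscle sum, 1305, and their highest value in the same 2 probe sets, 7.32 and 4.08. The part of these cell types in the Pax9 difference was not tested.

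The gene nearest to Pax9 over the 6 pools was another T-box gene, Tbx22, which is needed for the palate. It read 3.36, 3.94 and 3.82 in wild-type pools and 4.43, 5.12 and 4.97 in null pools. All null pools were higher. As for Pax9 in probe set 1442229_at, pool 1 was lowest and pool 2 highest among wild-type pools, and pool 2 was highest among null pools. Pax9 probe set 1421247_at had another order, lowest in wild-type pool 3 and in null pool 2. Tbx22 was picked as nearest over these same pools, so the shared order is only a description. Its root mean square difference from Pax9 was 0.191, against 0.573 for the departure of Pax9 from its own mean. Tbx22 is not a member of the set, and its change of 1.14 (SE 0.20) did not pass over all genes (limma adjusted p = 0.128). Hpse2, a heparanase family gene (0.202), and Pamr1 (0.205) came next, with differences of 0.71 and 0.87.

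Alx1 and Alx4, aristaless-like homeobox genes, differed in opposite directions at low levels. Alx4, on chromosome 2, limits the posterior signalling centre of the limb bud. It read 4.20, 4.11 and 3.75 in wild-type pools and 4.22, 4.41 and 4.47 in null pools (1421737_at). The null pools were above by only 0.01 at the nearest, and the difference of 0.35 (SE 0.13) dropped to 0.21 without wild-type pool 3. Alx1, on chromosome 10 and known from cranial mesenchyme, read 3.69, 3.75 and 3.47 against 3.33, 3.46 and 3.38 in probe set 1435022_at. Again 0.01 lay between the nearest pools, for a difference of -0.24 (SE 0.09). Its other probe set (1456454_at), at 2.55 and 2.54, was near the lowest value of the arrays (1.77) and differed by -0.02. All 3 means were under the median of all probe sets.

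Gsc, the goosecoid homeobox gene on chromosome 12, first known from the gastrula organizer, read 7.06, 6.94 and 7.08 in wild-type pools and 7.36, 7.04 and 7.13 in null pools. The groups overlapped. The difference was 0.15 (SE 0.09), and 0.06 without null pool 1.

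The PBX genes differed by 0.05 or less in size in every probe set. Pbx2, on chromosome 17, differed by -0.02, -0.04 and -0.02 (SE 0.07, 0.07 and 0.08) in its 3 probe sets. The brightest of these (1418893_at) read 10.27, 10.18 and 10.36 in wild-type pools and 10.27, 10.27 and 10.22 in null pools. Pbx3 differed by 0.05 in both of its probe sets (SE 0.07 and 0.06). Its brighter one (1447640_s_at) read 9.31, 9.22 and 9.26 against 9.34, 9.29 and 9.30, and its SD within groups of 0.04 was larger than that of only 4.9% of probe sets.

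**Figure D3:**
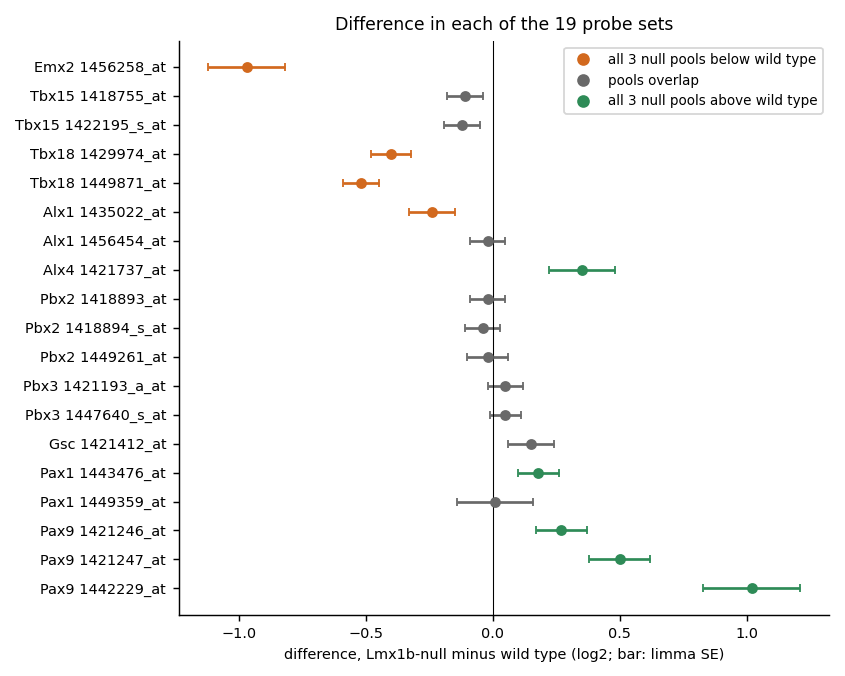
Difference between Lmx1b-null and wild-type means (log2, horizontal axis) in each of the 19 probe sets (vertical axis), with the limma SE as a bar; orange and green points have all 3 null pools below or above all wild-type pools, and grey points have overlapping pools. Values run from -0.97 for Emx2 to 1.02 for a Pax9 probe set.

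Pbx3 is also a close neighbour of the mutated gene: on chromosome 2 it is the second coding gene after Lmx1b in the order of the RefSeq table. The gene between them, Mvb12b, changed by 0.12 (SE 0.07), and on the other side of Lmx1b, Zbtb43 and Zbtb34 changed by 0.00 and 0.05. Over the 5 nearest measured genes on either side of Lmx1b, Pbx3 included, changes ran from -0.07 to 0.12. Of these 10, 0 passed limma's adjusted threshold and 0 had an unadjusted p under 0.05. The 2 genes with the largest differences had no called neighbour either. The 10 genes around Emx2 ran from -0.42 to 0.09 and those around Pax9 from -0.27 to 0.17, with 0 past the threshold and 1 with an unadjusted p under 0.05 in each, against the same 3.88% lower and 5.92% higher over all genes. Around Emx2, 8 of the 10 were lower, with a median of -0.1, and around Pax9 4 were lower, with a median of 0.03. Around Tbx18, 7 of 10 were lower, also with a median of -0.1 and 0 past the threshold. The median over all genes was 0.02. Beside Alx4 lay Syt13, the fifth measured gene on one side, which fell by 1.06 on the log2 scale (limma adjusted p = 0.0354), while the other neighbours read there lay within 0.15 of 0. Syt13 is also 1 of the 3 genes nearest to Emx2.

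Other genes of the girdles and the proximal limb were read from a list of 32 that left out the set itself, of which 30 had a probe set with 1 symbol and were analysed here. Shox2, needed for the proximal limb skeleton, fell, 0 rose and 29 did not pass, against 0.0879% of all genes called lower and 0.0165% called higher. Changes were negative in 14 and positive in 16, with a median of 0.01 against 0.02 over all genes. Shox2 read 11.44, 11.55 and 11.71 in wild-type pools and 10.82, 10.74 and 10.74 in null pools, a change of -0.80 (SE 0.08; limma adjusted p = 0.0177). This call was kept without wild-type pool 1 and lost when any other single pool, wild-type 2 or 3 or null 1, 2 or 3, was left out, with 0 genes of the list then called. By unadjusted p, 7 of the 30 were under 0.05, 4 lower and 3 higher, against 3.88% lower and 5.92% higher over all genes.

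Among those 7 were the chondrogenic factor genes Sox5 (-0.30) and Sox9 (-0.19) and the hindlimb gene Tbx4 (-0.29), lower in all null pools. Hand2 (0.27), which acts in the posterior limb bud, Tbx3 (0.26) and the mesenchymal gene Twist1 (0.14) were higher in all null pools. None of the 6 passed over all genes (limma adjusted p from 0.314 to 0.509). The 5 Meis and Pknox genes, whose proteins are partners of the PBX proteins, were at 0.01 (Meis1), 0.18 (Meis2), 0.12 (Meis3), 0.12 (Pknox1) and 0.20 (Pknox2), and 0 passed (limma adjusted p from 0.553 to 0.973). Null pools lay above all wild-type pools in Pknox1 and overlapped them in the others. Gli3, which acts with Alx4 and Tbx15 on the scapula, was at -0.02 and Emx1, the paralogue of Emx2, at 0.15 (SE 0.07).

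**Figure D4:**
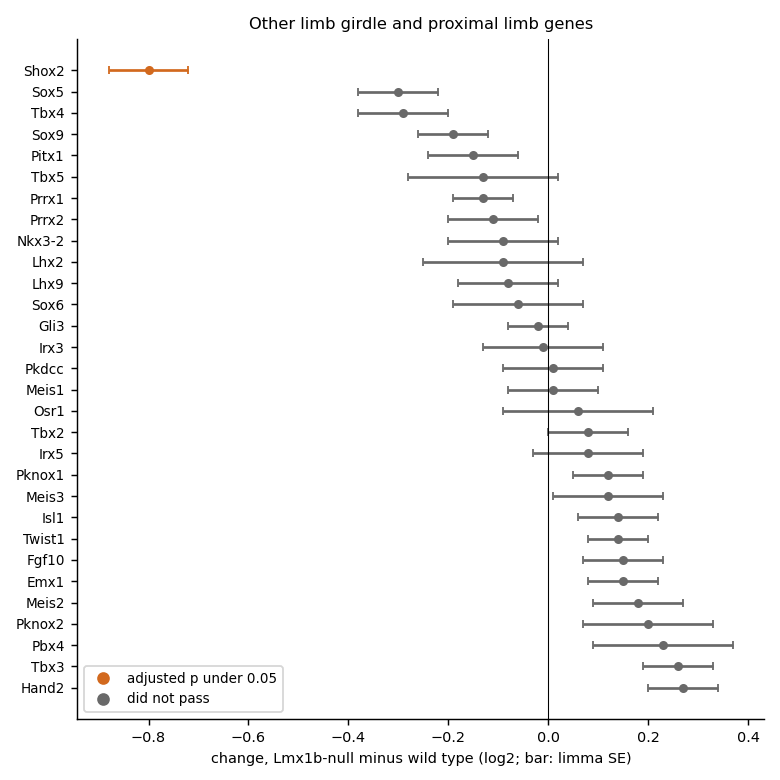
Change between Lmx1b-null and wild-type means (log2, horizontal axis) of 30 other girdle and proximal limb genes (vertical axis), 1 probe set each, with the limma SE as a bar; orange marks an adjusted p under 0.05 over all genes. Shox2, at -0.80, is the one such gene, and the others lie between -0.30 and 0.27.

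T-box, paired-box and homeobox relatives of the 10 genes were read next, from a list of 22. Of 19 measured, 0 passed limma's adjusted threshold and 3 had an unadjusted p under 0.05, Tbx22 (1.14), Tbx3 (0.26) and Tbx4 (-0.29), against 3.88% lower and 5.92% higher over all genes. The list shares genes with the girdle list, so Tbx3 and Tbx4 are counted in both. The median change was 0.06, and 11 of the 19 lay under the median level of all probe sets.

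Markers of further tissues that a proximal cut could hold were read in the same way. The summed levels of 10 neural tube markers were 106 to 113 in wild-type and 113 to 114 in null pools, and all 10 lay under the median level; Foxa2 (0.20), Tubb3 (0.13) and Mnx1 (-0.32) did not pass (limma adjusted p from 0.406 to 0.616). Endothelial markers, 8 of 8 lower and 0 past the threshold, summed to 914 to 1084 in wild-type and 842 to 904 in null pools, with Tek at -0.65, Kdr at -0.22 and Pecam1 at -0.19 (limma adjusted p = 0.0849, 0.496 and 0.507). The sums were thus lower in null pools, as were Emx2 and Tbx18, but the nearest pools stood at 904 and 914. All null pools lay below all wild-type pools in 4 of the 8 endothelial genes, and the rest overlapped. The part of endothelial cells in the Emx2 and Tbx18 differences was not tested. Surface ectoderm markers overlapped, at 720 to 843 against 812 to 883, with Epcam at 0.22, Krt18 at 0.14 and Wnt7a at 0.17 (adjusted p from 0.362 to 0.573). The 10 limb mesenchyme markers overlapped as well, at 9293 to 9758 against 9091 to 9413.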

How the data were processed

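Messenger RNA of 6 pools was read on 1 array each, 3 wild-type and 3 Lmx1b-null. The authors deposited RMA values, per the submitters' processing notes, with the RMA version not given in the sources used here. Each deposited value was read as log2 from its range (1.77 to 13.72), since no label states the base. Of 45101 probe sets, 64 controls were left out and 45037 tested. Platform annotation gave 34945 probe sets 1 symbol, 932 several and 9160 none; those with several named no gene. The number of arrays limits the precision (median SE 0.0843).

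The fit used limma 3.58.1 under R 4.3.3 (lmFit, eBayes, no trend, not robust), and p-values were two-sided and Benjamini-Hochberg adjusted over all probe sets, or over 18193 genes at the probe set with the highest mean. The fit over all probe sets was tested on simulated data with independent normal noise and variances drawn from limma's own fit. Such data meet limma's assumptions by construction, so they cannot show how the fit behaves where these fail. The fit over genes was not tested on simulated data. An exact permutation test of 1 value over these pools cannot go below 0.1. The labels name separate pools of embryos, taken as biological replicates.

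The genes and lists were chosen with earlier results of these data known. Named were all probe sets of the 10 genes, list members past the threshold or else the 3 with the smallest p, neighbours of Lmx1b and the 3 genes nearest in profile; the other genes named were chosen after their values were seen. Summed marker levels are sums of 2 to the power of the log2 values. A planned comparison of protein sequences was not analysed here. Alternatives were an intensity trend, the robust option, 2 scalings, bright probe sets only, array weights, the pool number as a block, each pool left out and, for lists, the probe set with the smallest p.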

Additional observations from a re-analysis of the deposited data

How the results depend on the processing

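Of the 19 probe sets, 14 kept the sign of their difference under both scalings, array weights, the block and every pool left out. The exceptions were Pbx2 1418893_at and 1449261_at, Pbx3 1421193_a_at, Alx1 1456454_at and Pax1 1449359_at, all with differences of 0.05 or less in size. Over all probe sets the median change was 0.014, or -0.003 with arrays centred and 0.011 when quantile normalized again. Over all features, 38 probe sets and 19 genes became 94 and 36 with a trend, and 20 probe sets passed among bright ones and 69 with array weights. When any 1 pool was left out, the counts ran over 13 to 38 probe sets, 4 to 37 genes, 0 to 1 of the girdle list and 0 of the relatives. With the pool number as a replicate block, 14 probe sets and 9 genes were called, 0 of the girdle list and 1 relative, Tbx22 (adjusted p = 0.0101). Deviations of pools with 1 number from their group means correlated at -0.239, -0.088 and -0.168. The labels do not say whether such pools shared more than the number, and these correlations cannot settle it. The cause of these differences was not tested.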
